A study of Mus musculus with 14 samples.

Results

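The genes described here encode enzymes that make nucleotides, the building blocks of RNA and DNA. The set of 10 was fixed by name: Ppat, Gart, Paics and Impdh2 of purine synthesis, Cad and Umps of pyrimidine synthesis, and Dctd, Tyms, Rrm1 and Rrm2 of deoxynucleotide synthesis. It was chosen with earlier results of these data known, so its counts beside shares of all genes are descriptions and not tests. A gene was read through its brightest probe set that carried 1 gene symbol in the array's annotation, which gave 9 of the 10 genes, among 19938 genes in all. Impdh2 had no such probe set and its level was not analysed here. Each of the other 9 had exactly 1 probe set, so brightness decided none of them.

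Expression was measured on 14 microarrays of BH1-Bcl2-Ik1ER, a mouse pre-B cell line deficient in Ikaros, a DNA-binding regulator of lymphocyte development. Cells of all groups carried both a Bcl2 retrovirus, whose product blocks apoptosis, and a retrovirus for Ikaros fused to the estrogen receptor, and 4-hydroxytamoxifen (4OHT) at 100 nM switched the fusion on. IL-7, on which early B cells depend, came from 8% conditioned medium of a J558L line that overexpresses it, so withdrawal also removed whatever else that medium held. The 7 groups of 2 arrays each were time 0 (with IL-7, no 4OHT), 6 h with 4OHT and with IL-7, 6 h with 4OHT and without IL-7, and 24 h in the 4 combinations of IL-7 and 4OHT. The 2 arrays of a group came from 2 independent experiments on this 1 sorted line. Cells without the fusion were not among the groups, so an effect of 4OHT itself and of Ikaros activity cannot be told apart, and no group at 6 h lacked 4OHT.

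Purine synthesis builds its ring stepwise on a ribose phosphate, and pyrimidine synthesis makes its ring first and then attaches it to the sugar. Ribonucleotide reductase turns ribonucleotides into deoxynucleotides, and a separate step makes the thymidine nucleotide that only DNA uses. Lymphoid precursors divide rapidly and draw heavily on these routes. Genes of nucleotide synthesis are known targets of MYC, and several deoxynucleotide genes are known to be expressed mainly around S phase.

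Values are RMA values on the log2 scale, where a difference of 1 is a doubling, and a change is a difference of group means ± SE with n = 2 arrays per group. A gene was called when limma's adjusted p over all 19938 genes was under 0.05. The median of an array lay between 7.23 and 7.43, and r between the arrays of 1 group was 0.9968 to 0.9982. Of the 11 pre-B markers measured, 9 lay above the median of all values (7.33), among them Igll1, Cd79b and Ebf1, while Rag1 and Rag2 lay below it in every group. Of 6 T cell markers 5, of 6 myeloid markers 5, of 4 erythroid and megakaryocyte markers 2, of 4 plasma cell markers 2 and of 6 stromal markers 3 lay below the median in every group. Among the others, Xbp1 of the plasma cell list had group means of 11.1 to 11.7 and Col1a1 of the stromal list 8.01 to 8.27. In the same fit 26 of 26 DNA replication genes and 19 of 19 G2/M genes were lower at 24 h without IL-7, with and without 4OHT, and that shift went with the changes described here at 24 h. Its part in them was not tested. In these bulk samples, fewer cycling cells and less RNA per cell cannot be told apart.

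**Figure D1:**
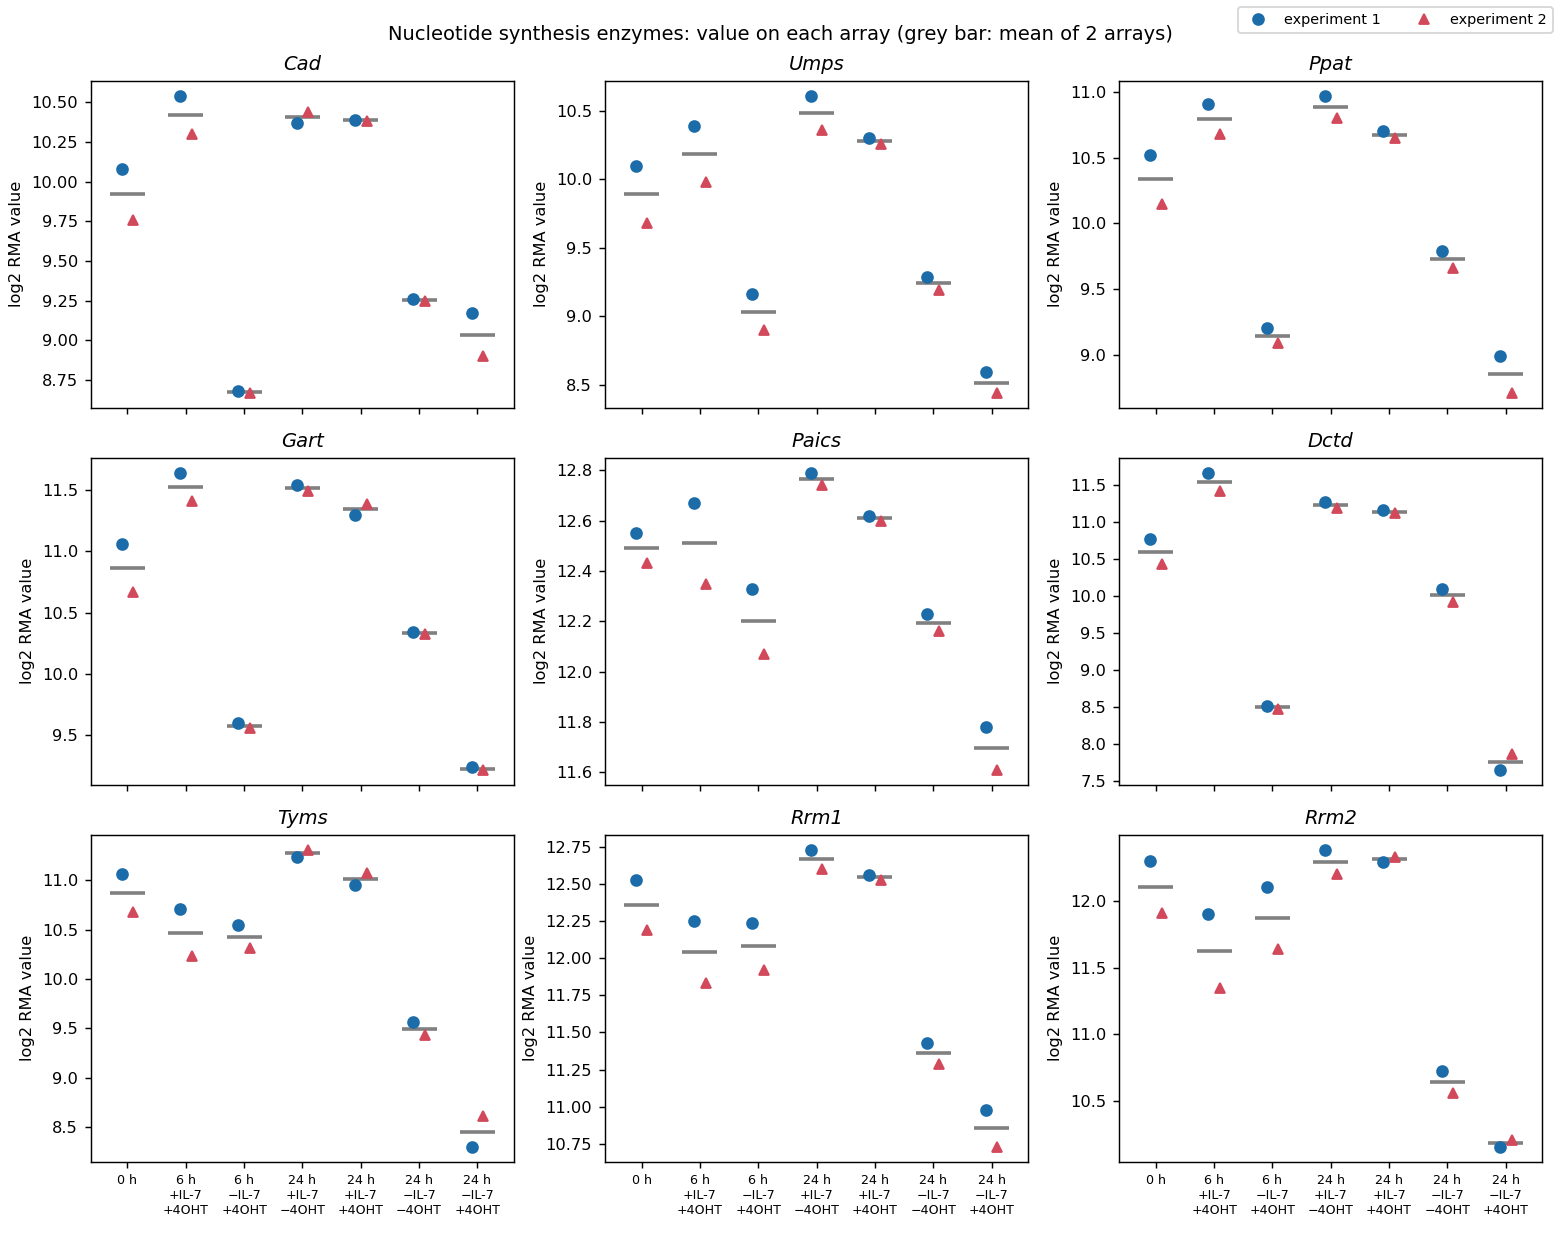
Value of each of the 9 genes on every array (log2 RMA value, vertical axis with its own range in each panel) in the 7 groups, with circles for experiment 1, triangles for experiment 2 and grey bars for group means. Cad, Umps, Ppat, Gart and Dctd were already low at 6 h without IL-7 on both arrays, whereas Tyms, Rrm1 and Rrm2 were low only in the groups at 24 h without IL-7.

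The loss of IL-7 for 6 h, compared under 4OHT, separated the enzymes into those that fell and those that were not called. Of the 9 genes 5 fell and 0 rose, against 7.48% of all genes lower. The 5 were Dctd, Gart, Cad, Ppat and Umps, with changes from -3.05 to -1.15. Paics, Tyms, Rrm1 and Rrm2 had values from -0.31 to 0.25. The median of the 9 was -1.15, beside 0.03 over all genes.

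In the purine pathway, Ppat, the amidotransferase that commits ribose phosphate to purine synthesis, read 10.91 and 10.68 with IL-7 and 9.20 and 9.09 without it in experiments 1 and 2. Its fall of -1.65 ± 0.13 (adjusted p = 5.75e-06) left 32.0% of the level with IL-7. Gart, a trifunctional enzyme of the middle steps, read 11.64 and 11.41 with IL-7 and 9.60 and 9.56 without, a change of -1.95 ± 0.11 (adjusted p = 7.25e-07). The arrays with and without IL-7 lay far apart for both genes. Paics, the bifunctional enzyme that carries out the following steps, read 12.67 and 12.35 with IL-7 and 12.33 and 12.07 without. Its change of -0.31 ± 0.11 was not called (adjusted p = 0.103), and its highest array without IL-7 lay just under its lowest array with it. With the experiment as a block it was called (adjusted p = 0.0122), which made 6 of 9 lower, against 10.0% of all genes.

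In the pyrimidine pathway, Cad, the trifunctional enzyme that starts the ring, read 10.54 and 10.30 with IL-7 and 8.68 and 8.67 without. It fell by 1.74 ± 0.12 on the log2 scale (adjusted p = 1.74e-06). Umps, which attaches the finished ring and makes UMP, read 10.39 and 9.98 with IL-7 and 9.16 and 8.90 without. It fell by 1.15 ± 0.16 (adjusted p = 0.000392). Both pyrimidine genes were lower without IL-7 on each array, and the groups did not overlap.

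Among the deoxynucleotide genes, Dctd fell and Tyms, Rrm1 and Rrm2 were not called. Dctd, the deaminase that turns dCMP into dUMP for thymidylate synthesis, read 11.67 and 11.43 with IL-7 and 8.52 and 8.47 without. Its change of -3.05 ± 0.12 (adjusted p = 4.65e-08) left 12% of the level with IL-7. Tyms, thymidylate synthase, which uses the dUMP that Dctd makes, read 10.71 and 10.23 with IL-7 and 10.55 and 10.31 without. The Tyms change of -0.04 ± 0.17 was not called (adjusted p = 0.948), with a 95% interval of -0.40 to 0.32. Rrm1, the large subunit of ribonucleotide reductase, read 12.25 and 11.83 with IL-7 and 12.24 and 11.92 without, and Rrm2, its small subunit, 11.90 and 11.35 with and 12.10 and 11.64 without. Neither was called (0.04 ± 0.16 and 0.25 ± 0.19, adjusted p = 0.949 and 0.519), with intervals of -0.31 to 0.38 and -0.15 to 0.66. For Tyms, Rrm1 and Rrm2 the arrays with and without IL-7 overlapped at 6 h. Within experiments 1 and 2 the changes were -0.16 and 0.08 for Tyms, -0.02 and 0.09 for Rrm1, and 0.21 and 0.29 for Rrm2. Rrm2 was not called with the experiment as a block either (adjusted p = 0.226).

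Promoter windows are shown for the enzymes whose early response differed most between neighbouring steps or neighbouring genes. They come from RefSeq (GRCm38.p6), run 5′ to 3′ on the gene's strand from 250 bases before to 50 bases after the annotated start, and all 10 genes matched, with 3 windows for Dctd and 1 for each other gene. Capitals mark CACGTG (the E-box that MYC and other factors bind), TTTCCCGC or TTTGGCGC (forms of the E2F site) and CCAAT (the NF-Y box), each searched on both strands. The Dctd window is the one at chr8:48109708-48110007, plus strand, and the Tyms window is at chr5:30073576-30073875, minus strand. The Ppat window is at chr5:76951529-76951828, minus strand, and the Paics window at chr5:76951052-76951351, plus strand.
Dctd: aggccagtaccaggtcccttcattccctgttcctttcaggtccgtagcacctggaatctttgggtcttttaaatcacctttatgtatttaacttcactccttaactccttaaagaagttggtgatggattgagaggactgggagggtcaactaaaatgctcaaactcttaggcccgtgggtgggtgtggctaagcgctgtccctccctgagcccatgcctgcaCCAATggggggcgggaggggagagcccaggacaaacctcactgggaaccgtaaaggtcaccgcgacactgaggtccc
Tyms: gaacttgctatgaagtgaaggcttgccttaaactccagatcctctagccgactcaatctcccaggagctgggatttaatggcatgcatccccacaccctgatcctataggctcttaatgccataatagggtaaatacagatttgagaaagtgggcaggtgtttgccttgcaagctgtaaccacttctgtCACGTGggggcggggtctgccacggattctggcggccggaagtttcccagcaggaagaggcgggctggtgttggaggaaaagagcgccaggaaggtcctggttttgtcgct
Ppat: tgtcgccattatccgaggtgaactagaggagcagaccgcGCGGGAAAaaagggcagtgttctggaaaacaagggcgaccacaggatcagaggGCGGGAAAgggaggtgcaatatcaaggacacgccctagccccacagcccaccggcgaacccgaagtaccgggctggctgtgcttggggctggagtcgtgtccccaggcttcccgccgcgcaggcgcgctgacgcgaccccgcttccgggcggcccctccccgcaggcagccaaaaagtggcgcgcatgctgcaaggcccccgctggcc
Paics: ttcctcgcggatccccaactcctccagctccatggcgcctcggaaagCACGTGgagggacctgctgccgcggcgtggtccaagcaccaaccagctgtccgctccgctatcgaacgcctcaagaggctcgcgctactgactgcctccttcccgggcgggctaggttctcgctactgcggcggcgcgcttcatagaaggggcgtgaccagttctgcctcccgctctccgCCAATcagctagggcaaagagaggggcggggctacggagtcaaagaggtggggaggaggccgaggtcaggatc

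The annotated starts of Ppat and Paics lie 276 bases apart on opposite strands, and each gene runs across the other's start. Of the 12 windows of the 10 genes, CACGTG was found in 3, those of Tyms, Paics and Impdh2, at positions -61, -203 and -110 from the start. Of all 32851 RefSeq windows of this length 7.15% hold it. TTTCCCGC was found in the Ppat window alone, as GCGGGAAA in 2 copies at positions -211 and -158, against 1.07% of all windows, and TTTGGCGC in 0 windows of the 12, against 0.514%. CCAAT was found in 7 of the 12 windows and 6 of the 10 genes, in Dctd, Gart, Paics, Impdh2, Rrm1 and Rrm2, against 37.4% of all windows. For Dctd, 2 overlapping windows hold the same CCAAT, at positions -27 and -82 from their starts. The remaining Dctd window holds no match of any of these motifs. No matches of different motifs overlapped in these windows. These matches are descriptions of letters and not sites shown to be bound.

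Although their starts are neighbours, Ppat and Paics changed by different amounts on IL-7 withdrawal. At 6 h the Ppat change minus the Paics change was -1.37 in experiment 1 and -1.30 in experiment 2. At 24 h this difference was -0.62 and -0.56 without 4OHT, and -0.88 and -0.95 with it. Ppat thus changed more than Paics in both experiments in each of these comparisons, by more than the gap between experiments. Paics was the brighter gene, with a mean of 12.35 over all arrays against 10.06 for Ppat, and saturation was not read.

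**Figure D2:**
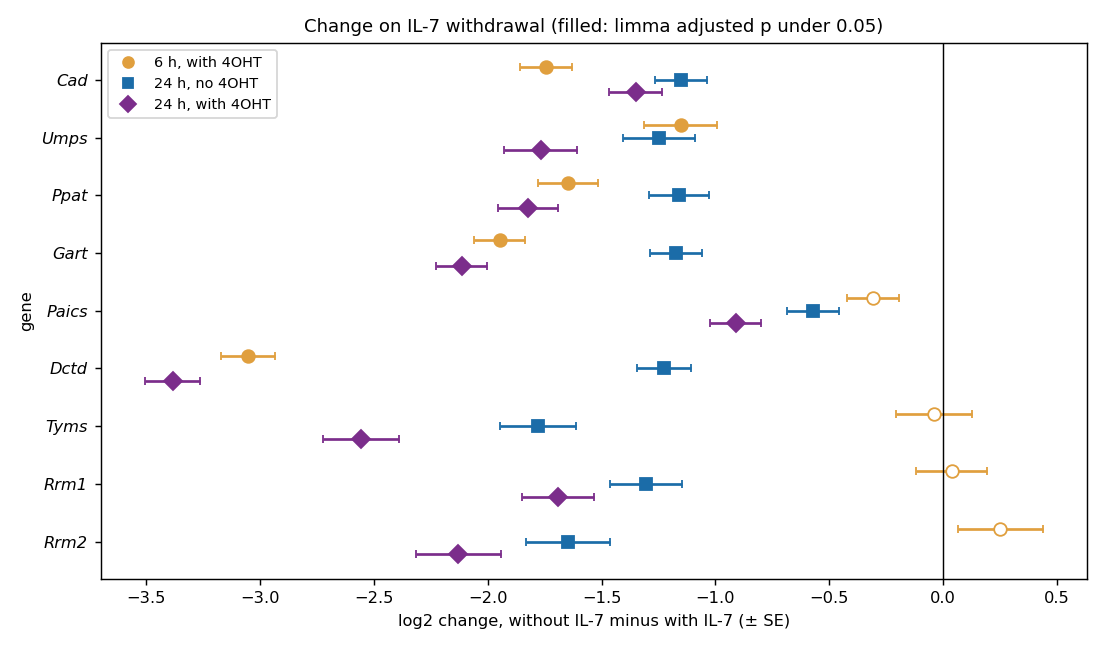
Change on IL-7 withdrawal for each of the 9 genes (log2 change ± SE, n = 2 arrays per group, horizontal axis) at 6 h with 4OHT (circles), at 24 h without 4OHT (squares) and at 24 h with 4OHT (diamonds), filled where limma's adjusted p was under 0.05. Dctd reaches -3.05 at 6 h while Tyms, Rrm1 and Rrm2 sit around 0, and all 27 values lie below 0 except those of Rrm1 and Rrm2 at 6 h.

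At 24 h without IL-7 all 9 enzymes were lower, with or without 4OHT. Without 4OHT 9 of 9 fell, against 8.78% of all genes lower, and with 4OHT 9 of 9 fell, against 11.5%. The median change was -1.22 without 4OHT and -1.82 with it, beside -0.01 and 0.06 over all genes. These comparisons held for the 9 genes with each array left out in turn.

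Without 4OHT, Tyms and Rrm2 had the lowest values. Tyms read 11.24 and 11.31 with IL-7 and 9.56 and 9.43 without, a change of -1.78 ± 0.17 (adjusted p = 2.88e-05). Rrm2 read 12.38 and 12.20 with IL-7 and 10.73 and 10.56 without, a change of -1.65 ± 0.19 (adjusted p = 8.74e-05), and Rrm1 fell by 1.30 ± 0.16 (adjusted p = 0.000134). Umps, Dctd, Gart, Ppat and Cad fell by similar amounts, between 1.15 (Cad) and 1.25 (Umps) on the log2 scale. Paics fell least (-0.57 ± 0.11, adjusted p = 0.00341), to 67.3% of the level with IL-7. In each of the 9 genes the 2 arrays without IL-7 lay below the 2 with it.

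With 4OHT the order was different, and Dctd came first. Dctd read 11.17 and 11.12 with IL-7 and 7.65 and 7.87 without, its lowest level in any group. Its change of -3.38 ± 0.12 (adjusted p = 2.82e-08) left 9.58% of the level with IL-7. Tyms read 10.95 and 11.08 with IL-7 and 8.30 and 8.61 without (-2.56 ± 0.17, adjusted p = 1.03e-06). Rrm2 (-2.13 ± 0.19) and Gart (-2.11 ± 0.11) followed, then Ppat (-1.82 ± 0.13), Umps (-1.77 ± 0.16) and Rrm1 (-1.69 ± 0.16). Cad (-1.35 ± 0.12) and Paics (-0.91 ± 0.11) fell least, and the 9 adjusted p-values were at most 0.000103.

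The difference between the withdrawal effects at 24 h and at 6 h, both with 4OHT, was itself tested. Of the 9 genes 3 had a stronger fall at 24 h, against 3.65% of all genes lower in this contrast. They were Tyms (-2.52 ± 0.24, adjusted p = 0.000116), Rrm2 (-2.38 ± 0.26, adjusted p = 0.000228) and Rrm1 (-1.73 ± 0.22, adjusted p = 0.000522). Dctd (-0.33 ± 0.17), Ppat (-0.18 ± 0.19) and Gart (-0.17 ± 0.16) were not called, with 95% intervals of -0.70 to 0.04, -0.58 to 0.23 and -0.52 to 0.18. Cad was the only one with a positive value (0.39 ± 0.16, adjusted p = 0.259), since its level was 8.68 and 8.67 at 6 h and 9.17 and 8.90 at 24 h. Paics (-0.60 ± 0.16, adjusted p = 0.0515) and Umps (-0.61 ± 0.22, adjusted p = 0.184) lay between. With the experiment as a block both were called (adjusted p = 0.00336 and 0.00858), which made 5 of 9, against 5.98% of all genes lower.

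Myc, Mycn, E2f1 and Ccnd2 were read beside the enzymes. Myc, the transcription factor of growth, changed by -2.13 ± 0.11 on withdrawal at 6 h (adjusted p = 2.66e-07) and by -0.80 ± 0.11 without 4OHT and -3.27 ± 0.11 with it at 24 h, and its fall under 4OHT was stronger at 24 h than at 6 h (-1.14 ± 0.15, adjusted p = 0.000571). E2f1, which drives S-phase genes, was not called at 6 h (-0.24 ± 0.12, adjusted p = 0.239) and fell at 24 h (-1.38 ± 0.12 without 4OHT and -1.35 ± 0.12 with it). Mycn fell at 6 h (-1.23 ± 0.09, adjusted p = 2.53e-06). At 24 h it was not called without 4OHT (-0.18 ± 0.09, adjusted p = 0.206) and fell with it (-0.475 ± 0.087). Its fall under 4OHT was weaker at 24 h than at 6 h (0.76 ± 0.12, adjusted p = 0.00276). Ccnd2 changed by -2.715 ± 0.189 at 6 h, and by -1.79 ± 0.19 without 4OHT and -3.07 ± 0.19 with it at 24 h. The part of any of these genes in the enzymes' changes was not tested.

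Ikaros induction with 4OHT for 24 h was compared with and without IL-7. With IL-7 kept, 0 of the 9 enzymes were called by limma, 0 had an unadjusted p under 0.05 and 0 were called with the experiment as a block, while 9.16% of all genes were called. The values ran from -0.26 (Tyms) to 0.02 (Rrm2), with a median of -0.16 beside -0.04 over all genes. The 95% intervals reached no lower than -0.63 (Tyms) and no higher than 0.43 (Rrm2). Dctd read 11.27 and 11.20 without 4OHT and 11.17 and 11.12 with it, a change of -0.09 ± 0.12 (adjusted p = 0.694). Cad read 10.37 and 10.44 without 4OHT and 10.39 and 10.38 with it (-0.02 ± 0.12, adjusted p = 0.949).

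Without IL-7, 4OHT went with lower levels of 7 of the 9 enzymes, against 8.17% of all genes lower. Dctd read 10.10 and 9.92 without 4OHT and 7.65 and 7.87 with it, a change of -2.25 ± 0.12 (adjusted p = 1.72e-07) that left 21.0% of the level. Gart read 10.34 and 10.33 without 4OHT and 9.24 and 9.22 with it (-1.11 ± 0.11, adjusted p = 2.86e-05). Tyms read 9.56 and 9.43 without and 8.30 and 8.61 with 4OHT (-1.04 ± 0.17, adjusted p = 0.000926). These groups did not overlap. Ppat (-0.87 ± 0.13), Umps (-0.72 ± 0.16), Paics (-0.50 ± 0.11) and Rrm1 (-0.51 ± 0.16) also fell, Rrm1 with an adjusted p of 0.0491. Cad (-0.22 ± 0.12, adjusted p = 0.297) and Rrm2 (-0.46 ± 0.19, adjusted p = 0.138) were not called, and with the experiment as a block Rrm2 was (adjusted p = 0.0207). Leaving out the array without 4OHT of experiment 1 or the array with 4OHT of experiment 2 left 4 called, since Umps, Paics and Rrm1 no longer passed, and Rrm1 did not pass without either of the other arrays.

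**Figure D3:**
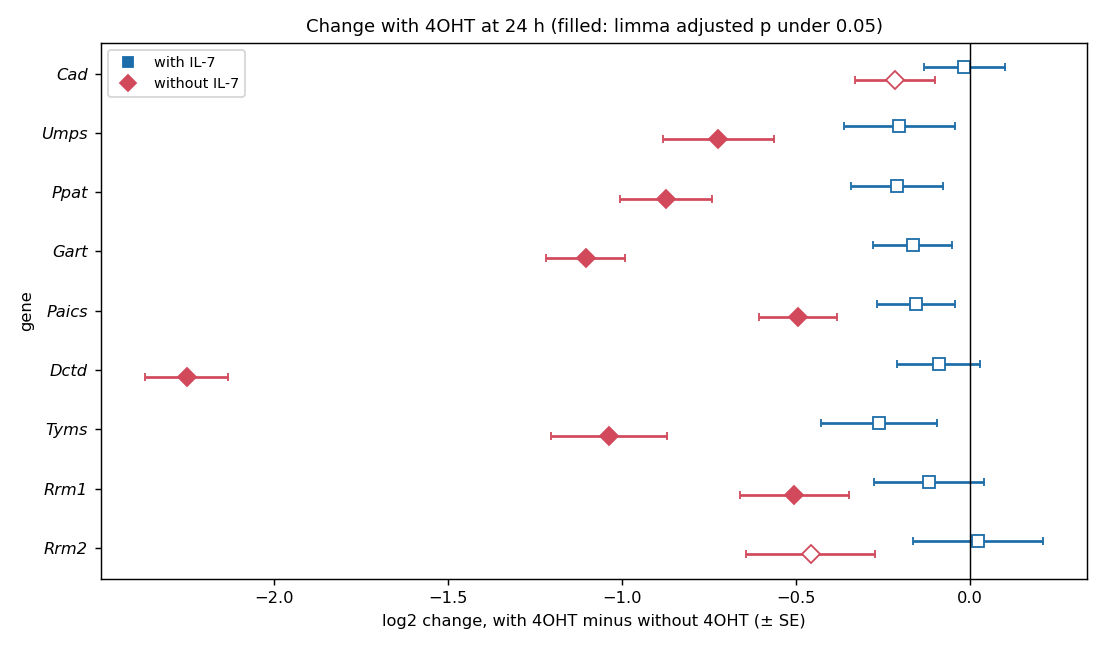
Change with 4OHT at 24 h for each of the 9 genes (log2 change ± SE, n = 2 arrays per group, horizontal axis), with IL-7 (squares) and without IL-7 (diamonds), filled where limma's adjusted p was under 0.05. All 9 squares are open and lie between -0.26 and 0.02, and the diamonds run from -2.25 (Dctd) to -0.22 (Cad).

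Whether the change with 4OHT differed with and without IL-7 was tested as the interaction at 24 h. All 9 values were negative, the sign of a larger fall on withdrawal with 4OHT than without. Their median was -0.52, beside 0.03 over all genes. Of the 9 genes 2 were called, against 0.617% of all genes lower. The 95% intervals of Cad, Paics, Rrm1 and Rrm2 reached positive values. Dctd had -2.16 ± 0.17 (adjusted p = 0.000138), with -2.34 in experiment 1 and -1.98 in experiment 2. Gart had -0.94 ± 0.16 (adjusted p = 0.0196), with -0.87 and -1.01 in the experiments. Gart no longer passed when any 1 of the 8 arrays at 24 h was left out (adjusted p between 0.0584 and 0.107), so 1 gene was then called. Ppat (-0.66 ± 0.19, adjusted p = 0.188) was called only with the experiment as a block (adjusted p = 0.00627). The interaction was not called for Tyms (-0.78 ± 0.24, adjusted p = 0.25), Umps (-0.52 ± 0.22), Rrm2 (-0.48 ± 0.26), Rrm1 (-0.39 ± 0.22), Paics (-0.34 ± 0.16) or Cad (-0.20 ± 0.16, 95% interval -0.56 to 0.16). Myc had an interaction of -2.47 ± 0.15 (adjusted p = 3.05e-05), and its part was not tested. It was not called for Ccnd2 (-1.28 ± 0.27, adjusted p = 0.0587), Mycn (-0.30 ± 0.12) or E2f1 (0.03 ± 0.16). With the experiment as a block Ccnd2 was called (adjusted p = 0.00019).

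Against cells at 24 h with IL-7 and no 4OHT, cells with both treatments had lower levels of all 9 enzymes, against 15.4% of all genes lower. Dctd was at 9% of the untreated level (-3.47 ± 0.12, adjusted p = 4.69e-09), Tyms at 14.2% (-2.82 ± 0.17) and Gart at 20.6% (-2.28 ± 0.11). Rrm2 (23.2%), Ppat (24.4%), Umps (25.5%), Rrm1 (28.5%) and Cad (38.8%) followed, and Paics kept the most (47.7%, adjusted p = 1.19e-05).

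In culture with IL-7, several of the enzymes lay above time 0. At 6 h with 4OHT 4 of 9 rose, against 3.92% of all genes higher: Dctd (0.94 ± 0.12, adjusted p = 0.000317), Gart (0.66 ± 0.11, adjusted p = 0.00256), Cad (0.50 ± 0.12, adjusted p = 0.017) and Ppat (0.46 ± 0.13, adjusted p = 0.0497). Dctd read 10.77 and 10.44 at time 0 and 11.67 and 11.43 at 6 h. Paics (0.02 ± 0.11) and Umps (0.30 ± 0.16) were not called, and Tyms (-0.41 ± 0.17), Rrm2 (-0.48 ± 0.19) and Rrm1 (-0.32 ± 0.16), with values below 0, were not called either. With the experiment as a block Umps also rose (adjusted p = 0.0454) and Rrm2 and Rrm1 fell (adjusted p = 0.024 and 0.0267), so 5 rose and 2 fell, against 6.83% and 8.21% of all genes. Without the time 0 array of experiment 2, 2 were called, and with only the compared arrays in the fit 1 was.

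At 24 h with IL-7 and no 4OHT, the same 4 genes were higher than at time 0, against 0.737% of all genes higher. Gart (0.65 ± 0.11, adjusted p = 0.0123), Dctd (0.63 ± 0.12, adjusted p = 0.0176), Ppat (0.55 ± 0.13, adjusted p = 0.0455) and Cad (0.49 ± 0.12, adjusted p = 0.0457) rose. Both comparisons use the time 0 arrays. With the experiment as a block Umps (adjusted p = 0.00219), Paics (adjusted p = 0.0417) and Rrm1 (adjusted p = 0.0484) also rose, 7 of 9 against 3.16% of all genes. Without the block 0 were called when the time 0 array of experiment 2, or either 24 h array, was left out. At time 0 experiment 1 lay above experiment 2 in 9 of 9 genes, by a median of 0.37, and at 24 h with IL-7 and no 4OHT by a median of 0.07.

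The order of the 7 groups by level differed between enzymes, and only Dctd and Gart had the same order. Dctd, Tyms, Umps, Ppat, Gart, Paics, Rrm1 and Rrm2 were lowest at 24 h without IL-7 and with 4OHT, and Cad was lowest at 6 h without IL-7 (8.67 ± 0.01, SD, n = 2). For Dctd the arrays of neighbouring groups did not overlap anywhere in the order: 7.76 ± 0.15 at 24 h with 4OHT and no IL-7, arrays at 8.52 and 8.47 at 6 h without IL-7, 10.01 ± 0.12 at 24 h without either, and 10.61 ± 0.24 at time 0 (SD, n = 2). Above these lay 11.14 ± 0.03 and 11.23 ± 0.05 at 24 h with IL-7, with and without 4OHT, and 11.55 ± 0.17 at 6 h with IL-7. For Tyms, Rrm1 and Rrm2 the 2 groups at 24 h without IL-7 lay below all others, and the arrays at 6 h with and without IL-7 overlapped. For Dctd, Cad, Umps, Ppat, Gart and Paics the 3 highest groups were those kept with IL-7 after time 0. All neighbours among these 3 groups overlapped for Cad and Ppat. Rrm1 and Tyms had the most similar profiles to Rrm2 (Pearson r of 0.991 and 0.980 over 7 group means), and Ppat and Gart were alike at 0.998, while Cad and Rrm2 were least alike of the 36 pairs (0.595). These correlations share arrays and have no test.

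Outside the set, the genes with the most similar group means, among 1737 genes with a range of at least 1, differed by enzyme. For Dctd they were Srm (r = 0.998), spermidine synthase, Polr1b (0.998), part of the polymerase that transcribes ribosomal RNA, and Atic (0.997), which completes the purine ring. For Gart they were Ifrd2, Pno1 and Nop58, and for Ppat Cct3, Eif4e and Nop58. For Tyms they were Dtl (0.997), Tmpo and Nemp1, for Rrm1 Tmpo, Tk1 (0.998), the thymidine kinase of S phase, and Wdr76, and for Rrm2 Rad51ap1 (0.999), Ncapg2 and Pclaf. For Cad they were Chchd4, Exosc1 and Wdr18, for Umps Aven, Hsp90aa1 and Mrps27, and for Paics Mphosph6, Ipo5 and Gemin6. Each r is over the 7 group means, which share 2 experiments, and with so few points many genes reach values this high.

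Other genes of nucleotide metabolism were counted from lists of pathway steps. These counts stand beside the 7.48% of all genes that fell and the 6.78% that rose on withdrawal at 6 h. Of 9 other purine synthesis genes, 7 fell and 1 rose on withdrawal at 6 h, with a median of -0.60. Atic, which read 12.16 and 11.96 with IL-7 and 10.12 and 9.90 without, fell most (-2.05 ± 0.10, adjusted p = 2.67e-07). The others were lower by smaller amounts, such as Pfas (-0.76), Prps1 (-0.68), which makes the ribose phosphate donor, and Adsl (-0.67), and Adssl1 rose (0.55). Of 4 other pyrimidine genes 2 fell, Ctps (-1.91 ± 0.17), CTP synthase, and Dhodh (-0.43), and of 8 genes of deoxynucleotide supply 5 fell, led by Nme1 (-1.71 ± 0.14), a nucleoside diphosphate kinase. Of 8 folate genes, which supply one-carbon units to purines and thymidylate, 6 fell, with Mthfd1 (-2.02 ± 0.17), Shmt1 (-1.71 ± 0.14) and Shmt2 (-1.28 ± 0.11) among them. Atic stands in both lists. Of 14 salvage genes 5 fell and 1 rose, led by Uck2 (-1.33 ± 0.08), uridine-cytidine kinase, and Adk (-1.10 ± 0.13), adenosine kinase, with a list median of 0.05. Of 17 breakdown and cleansing genes 3 fell and 0 rose, Dctpp1 (-1.38), Ampd2 (-0.92) and Nt5c (-0.31).

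At 24 h with 4OHT, withdrawal lowered 8 of the 9 other purine genes, 2 of the 4 pyrimidine genes, 5 of the 8 genes of deoxynucleotide supply, 6 of the 8 folate genes, 7 of the 14 salvage genes and 4 of the 17 breakdown genes, against 11.5% of all genes lower. In the same comparison 3 salvage genes rose (Tk2, Uckl1 and Dguok), against 12.8% of all genes higher. Adssl1, Ctps2, Rrm2b and Gda rose too, 1 in each of the purine, pyrimidine, deoxynucleotide and breakdown lists. Larger changes were among the genes that fell, such as Mthfd1 (-2.73), Ctps (-2.71) and Nme1 (-2.22).

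With 4OHT added without IL-7, 4 purine, 1 pyrimidine, 2 deoxynucleotide, 6 folate, 3 salvage and 2 breakdown genes fell, against 8.17% of all genes lower. In that comparison 1 purine, 1 pyrimidine, 2 deoxynucleotide and 1 salvage gene rose, against 7.10% of all genes higher. Under the block 6 purine, 2 pyrimidine, 4 deoxynucleotide and 5 salvage genes fell, against 2286 of all 19938 genes lower. With the block 2 of the 14 salvage and 2 of the 17 breakdown genes rose, against 2184 of all 19938 genes higher. Those rises lay close to the share of all genes and do not set these 2 lists apart. With IL-7 kept, the genes of these lists that rose were Adssl1, Ctps2, Rrm2b, Samhd1, Tk2 and Nt5c2. Those that fell were Impdh1 and Aldh1l1. Of all genes 9.16% were called, 5.22% higher and 3.94% lower. Under the block Pnp and Dpys fell as well (adjusted p = 0.0277 and 0.0382), and 9.09% of all genes were higher and 7.58% lower.

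The interaction was called below 0 for Ctps (-1.40 ± 0.24, adjusted p = 0.0227), Atic (-1.31, adjusted p = 0.00198), Mthfd1 (-1.30, adjusted p = 0.0326), Nme1 (-1.08, adjusted p = 0.0294), Uck2 (-1.08, adjusted p = 0.000863) and Impdh1 (-0.75, adjusted p = 0.0106), against 0.617% of all genes lower. Under the block Adk, Shmt2 and Nt5c3 were also called below 0 (adjusted p = 0.00755, 0.0266 and 0.0473) and Adssl1 above 0 (adjusted p = 0.0398). With the block 1.84% of all genes were lower and 0.411% higher.

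Lists of cell growth and of the cell cycle were counted in the same comparisons. Of 19 ribosome biogenesis and MYC target genes 18 fell on withdrawal at 6 h and 19 at 24 h with 4OHT, with medians of -1.64 and -1.46. Of 26 DNA replication genes 2 fell at 6 h and 26 at 24 h, with medians of -0.13 and -1.67, and of 19 G2/M genes 0 were called at 6 h and 19 fell at 24 h, with medians of 0.18 and -1.71. At 6 h 4 G2/M genes were higher at an unadjusted p under 0.05 by limma. With the experiment as a block 5 were called higher, against 11.2% of all genes. With that block 5 DNA replication genes were called lower at 6 h, against 10.0% of all genes. In the contrast of 24 h against 6 h, 26 of 26 DNA replication genes, 19 of 19 G2/M genes and 0 of 19 ribosome biogenesis genes were lower by limma (1 at an unadjusted p under 0.05 and 1 with the block), while 1 of the latter was higher. Tk1 (-2.10 ± 0.25), Mthfd2 (-1.70 ± 0.21), Dut (-1.55 ± 0.25), the dUTPase, and Dck (-1.20 ± 0.21), deoxycytidine kinase, were lower in that contrast too, and so were Adk (-0.87 ± 0.19, adjusted p = 0.0177) and Impdh1 (-0.62 ± 0.11, adjusted p = 0.00631), while Nt5c was higher (0.50 ± 0.13, adjusted p = 0.0486). Under the block 4 genes of deoxynucleotide supply, 3 folate and 5 salvage genes were lower there, against 5.98% of all genes. Without it 1, 1 and 3 were lower, against 3.65% of all genes.

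**Figure D4:**
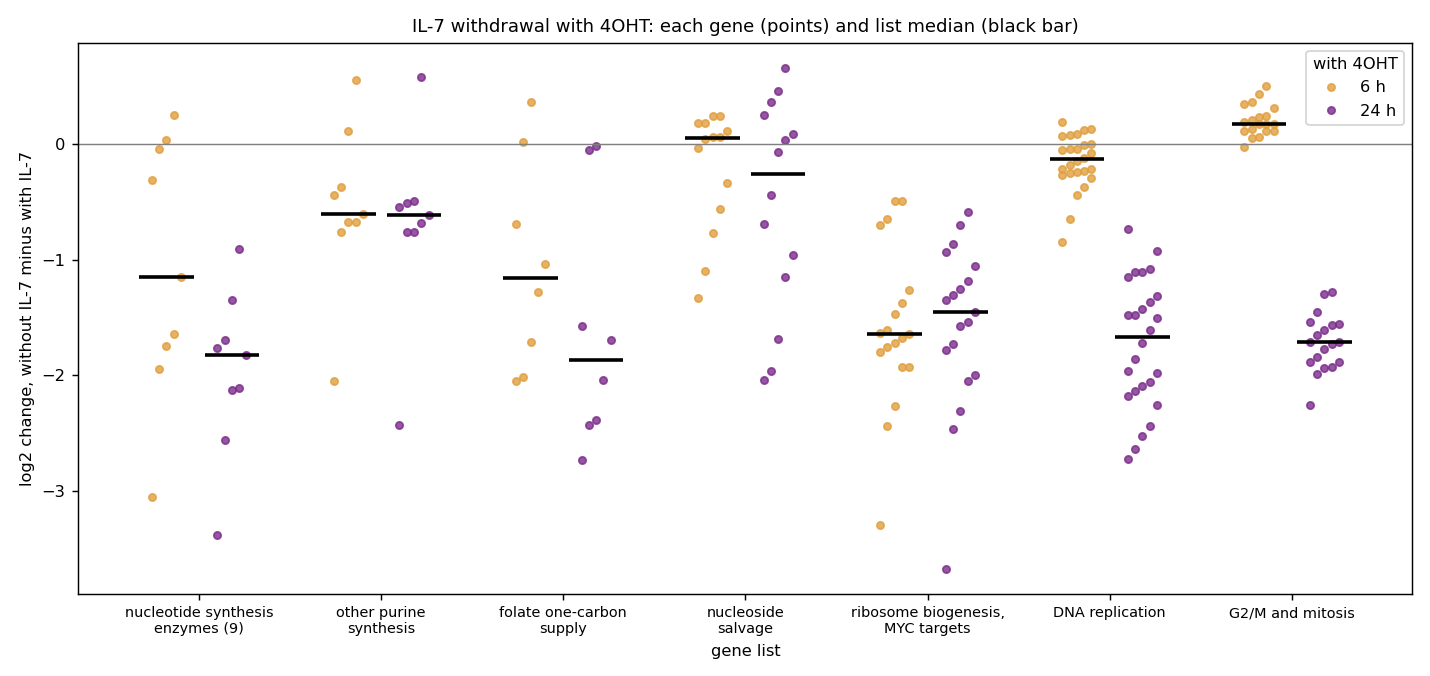
Change on IL-7 withdrawal with 4OHT for each gene (points, log2 change, vertical axis) of 7 gene lists (horizontal axis) at 6 h and at 24 h, with black bars for list medians. The nucleotide enzymes spread from -3.05 to 0.25 at 6 h and from -3.38 to -0.91 at 24 h, the ribosome biogenesis list is low at both times, and the DNA replication and G2/M lists are low only at 24 h.

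Isozymes of these steps had changes of their own. Impdh1, which carries out the same step as Impdh2 toward guanine nucleotides, read 9.20 and 8.99 at 24 h with IL-7 and 8.45 and 8.40 after 4OHT was added (-0.67 ± 0.08, adjusted p = 0.000214). Without IL-7 its change with 4OHT was -1.41 ± 0.08 (adjusted p = 2.64e-07), and on withdrawal at 6 h it was not called (0.11). Rrm2b, the alternative small subunit of ribonucleotide reductase that p53 induces, was read beside Rrm2. It read 9.34 and 9.24 at 24 h with IL-7 and 10.40 and 10.14 with 4OHT (0.98 ± 0.11, adjusted p = 0.000104), and rose by 1.19 ± 0.11 with 4OHT without IL-7. Ctps2, the isozyme of Ctps, rose with 4OHT in cells with IL-7 (0.48 ± 0.10, adjusted p = 0.00871). Tk2, the mitochondrial thymidine kinase, rose there too (0.73 ± 0.12, adjusted p = 0.00171).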

How the data were processed

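RNA (150 ng of total RNA a sample) was labelled with biotin using whole-transcript kits, per the labels' protocols. Per the submitters' processing notes, the arrays were processed with Affymetrix Expression Console 1.1 and RMA, which corrects background, quantile-normalizes arrays and summarises probes. The table the authors deposited holds log2 values of 35556 probe sets and was not rescaled. The array's build was not given in the sources used here, and scanner intensities were not used, so saturation and detection limits were not read. Changes are relative to the bulk of genes. The members and lists were chosen with earlier results of these data known.

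Of the probe sets 21789 carried 1 symbol, 1621 several and 12146 none. The brightest probe set per gene left 19938 genes. Groups and experiment numbers came from the sample titles. Limma 3.58.1 in R 4.3.3 (lmFit, eBayes) was fitted to all genes and all 14 arrays with a mean per group (7 residual and 4.83 prior degrees of freedom), for 10 comparisons, with two-sided tests and Benjamini-Hochberg adjustment over all genes. Named genes are all members, genes of a member's own step, fixed context genes and some of the called genes of each list. The plan for list genes was at most 4 per list and comparison by size. It was not kept throughout, since some smaller changes are named and some larger ones are not. P-values measure the spread between 2 experiments in 1 line. Same-numbered arrays are pairs, because each number stands for 1 independent experiment. Their deviations from group means correlated at 0.124 to 0.631 in all 21 pairs of groups. The procedure was tested on simulated data for the 6 h withdrawal comparison over 19938 genes. It recovered 67 of 67 genes changed by 2, 64 of 67 changed by 1 and 39 of 66 changed by 0.5 on the log2 scale. The simulated noise was independent between arrays, so it does not show how the fit behaves with deviations shared within an experiment. Alternatives were the experiment as a block, renewed quantile normalization, removal of dim genes, the mean of a gene's probe sets, a variance trend, only the compared arrays and each array left out.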

Additional observations from a re-analysis of the deposited data

Results flagged for a closer look

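In 5 cases the effect of a treatment differed between conditions by a test of the difference itself. The interaction of IL-7 withdrawal and 4OHT at 24 h was -2.16 for Dctd and -0.94 for Gart. The withdrawal effect at 24 h minus that at 6 h, both with 4OHT, was -2.52 for Tyms, -2.38 for Rrm2 and -1.73 for Rrm1. With 2 arrays per group no array could be tested for standing apart within its group.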

How the results depend on the processing

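With the experiment as a replicate block, 7 members were called at 6 h of culture against time 0 (4 without the block). At 24 h of culture 7 were called (4 without the block). For withdrawal at 6 h the block gave 6 (5 without the block), and for the withdrawal effect at 24 h minus 6 h 5 (3 without the block). For 4OHT without IL-7 it gave 8 (7 without the block) and for the interaction 3 (2 without the block). No call was lost. With only the compared arrays, 1 was called at 6 h of culture and 0 at 24 h. Leaving out single arrays gave 2 to 4 at 6 h of culture, 0 to 5 at 24 h of culture, 5 to 6 for withdrawal at 6 h, 4 to 6 for 4OHT without IL-7, 1 for the interaction and 3 to 4 for the withdrawal effect at 24 h minus 6 h. It left 9 for withdrawal at 24 h with or without 4OHT and for both treatments, and 0 for 4OHT with IL-7. Under quantile normalization, removal of dim genes and a variance trend only Paics at 24 h minus 6 h changed its call, to called (adjusted p of 0.0229, 0.0381 and 0.0297), and the mean of probe sets changed none. Values called in no setting turned sign when 1 array was left out: Paics at 6 h of culture (-0.139 to 0.178, also -0.040), Tyms (-0.281 to 0.202, also 0.079), Rrm1 (-0.177 to 0.250, also -0.124) and Rrm2 (-0.024 to 0.526) on withdrawal at 6 h, Rrm2 at 24 h of culture (-0.005 to 0.386), and Cad (-0.049 to 0.015) and Rrm2 (-0.068 to 0.112) for 4OHT with IL-7. Over all genes the block moved the counts called to 2999 from 1748 at 6 h of culture, 2056 from 617 at 24 h, 3324 from 1826 for 4OHT with IL-7, 449 from 137 for the interaction and 1972 from 998 for 24 h minus 6 h. With only the compared arrays they were 884 at 6 h and 128 at 24 h of culture. The cause of these shifts was not tested. Array number limits the precision, with a median SE of 0.091.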
